A study of Mus musculus with 8 samples.

Results

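The genes described here are 45 interferon-stimulated genes of the mouse chosen by symbol from a list of genes that interferons are known to induce. The deposited table of 13387 genes held 44 of them. Mx1, which codes for a large antiviral GTPase, was not analysed here. The low-count filter of the test kept 11722 genes, among them 42 of the listed genes, and left out Oas2 and Oasl1.

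Interferons are secreted proteins that bind receptors on the cell surface and act through Janus kinases and STAT transcription factors. Type I and type III interferons assemble a complex of STAT proteins and IRF9, which binds the interferon-stimulated response element (ISRE), and type II interferon (interferon gamma) acts through STAT dimers that bind the gamma-activated site (GAS). The induced genes code for proteins that bind foreign nucleic acid, block the entry or copying of viruses, attack the vacuoles of intracellular pathogens or adjust the response itself. In MKs, interferon-induced proteins such as IFITM3 are known as part of the antiviral repertoire that is passed on to platelets.

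RNA-Seq was performed on MKs from the bone marrow of C57BL/6 wild-type mice that were cultured alone (4 libraries) or together with C57BL/6 wild-type bone marrow MSCs (4 libraries). MSCs were sorted as CD45-Ter119-CD31-CD51+CD140a+ cells, and cultures lasted 18 hours. No group carried a modified allele or received a drug, and the mice were adults. Several wells were pooled for each library. The series describes the sequenced cells as MKs that were taken from the cultures and freed of platelets, whereas the paper describes platelets made in the cultures. The labels do not say whether libraries came from separate animals or cultures, and the paper gives separate mice only for libraries that it calls platelets, so p-values measure the spread between these libraries, which may be technical.

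Total counts ran from 4939874 to 12523616 per library, and a level of 3 counts was worth 0.283 to 0.660 CPM, the unit of level used here (the count relative to the TMM-scaled library total). This floor covers counting error only. Markers of MKs and platelets were present in every library, with summed levels of 2543 to 2798 CPM in MKs cultured alone and 1928 to 2542 CPM in cocultures. Neutrophil markers summed to 84786 to 86948 CPM in MKs cultured alone, so the libraries did not hold MK RNA alone. Replicate 3 of the cocultures stood apart from the other libraries. It had the highest total, the fewest genes with a count (10735, against 12406 to 13193 elsewhere) and the lowest TMM factor (0.766). For that reason the fold changes and calls that the results turn on are given with this library and without it.

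Promoters of the interferon-stimulated genes were searched first for the letters that interferon-activated factors are known to bind. RefSeq promoter windows on GRCm38.p6, from 250 bases before to 50 bases after the start of each gene, were found for 35 of the 44 genes. The ISRE core was searched on both strands as the letters GAAA, any 2 bases and GAAA again, which read TTTC, any 2 bases and TTTC on the other strand. Overlapping matches were counted separately. It was found in 19 of 35 interferon-stimulated genes (54.3%), and in 3.95% of the 9311 tested genes with a window. The GAS letters TTCNNNGAA, which read the same on both strands, were found in 9 of 35 (25.7%) against 8.53% of the tested genes. A match is a description of the window and not a bound site, and absence of these letters says nothing about windows that were not searched.

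The stretches below hold the ISRE core letters of 9 interferon-stimulated genes, with 20 bases on each side, and lie wholly upstream of the annotated gene. They are shown so that genes that were higher in coculture, genes that were lower once replicate 3 was left out, and genes that were called in neither case can be compared in sequence. Each is written 5′ to 3′ on the strand of its gene, capitals mark the ISRE core letters, and positions are those of GRCm38.p6.
Isg15, chr4:156200855-156200916, minus strand: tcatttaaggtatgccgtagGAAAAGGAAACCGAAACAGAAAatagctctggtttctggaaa
Bst2, chr8:71537567-71537622, minus strand: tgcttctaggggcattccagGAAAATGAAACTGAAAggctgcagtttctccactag
Ifit1, chr19:34640765-34640833, plus strand: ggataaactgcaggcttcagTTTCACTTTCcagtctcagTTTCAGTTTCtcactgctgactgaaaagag
Ifit3, chr19:34583353-34583436, plus strand: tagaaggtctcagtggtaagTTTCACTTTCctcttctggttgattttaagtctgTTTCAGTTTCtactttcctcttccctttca
Ifit3b, chr19:34607749-34607832, plus strand: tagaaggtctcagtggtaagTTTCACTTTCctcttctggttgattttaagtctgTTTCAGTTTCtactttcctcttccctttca
Gbp7, chr3:142530263-142530312, plus strand: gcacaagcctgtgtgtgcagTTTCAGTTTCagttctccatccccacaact
Igtp, chr11:58199502-58199551, plus strand: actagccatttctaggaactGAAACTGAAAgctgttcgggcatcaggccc
Oas3, chr5:120777705-120777754, minus strand: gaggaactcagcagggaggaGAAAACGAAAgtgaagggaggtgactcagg
Rsad2, chr12:26456543-26456592, minus strand: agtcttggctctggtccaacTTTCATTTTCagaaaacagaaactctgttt

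Isg15 held 3 overlapping matches, the first of them 78 bases before the start, and Bst2 held 2 overlapping matches from 130 bases before the start. The stretches of Ifit3 and Ifit3b were identical over all 84 bases. The core was found in genes with and without a call. With all libraries, 3 of the 7 genes with a window that were called higher had the core, and so did 16 of the 27 that were not called. Without replicate 3 of the cocultures, the core was found in 7 of 12 genes called higher, 2 of 5 called lower and 10 of 17 not called. For the GAS letters the counts with all libraries were 3 of 7 called higher and 6 of 27 not called, and without replicate 3 they were 3 of 12 called higher, 1 of 5 called lower and 5 of 17 not called.

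Whether coculture with MSCs changed the level of these genes was tested gene by gene with edgeR's quasi-likelihood test over all 11722 genes. Calls required a 2-fold or larger change, an adjusted p (Benjamini-Hochberg, over all genes tested) no higher than 0.05, and a group mean that reached 1 CPM in MKs cultured alone or in cocultures. Of the 42 interferon-stimulated genes tested, 9 were higher in cocultures (Isg15, Bst2, Ifitm3, Rtp4, Irf7, Iigp1, Xaf1, Ifi35 and Lgals3bp), 0 were lower and 33 were not called. The share called higher was 21.4%, against 13.2% of all genes tested, and 7.31% of all genes tested were called lower. At an unadjusted p under 0.05, 14 were higher and 3 were lower, where 21.7% and 14.5% of all genes were. DESeq2 called 11 higher and 2 lower, beside 15.8% and 10.7% of all genes. The fold changes did not move one way as a whole. Of the 42, 24 had a log2 fold change above 0 and 18 below 0, with a median of 0.28 beside 0.034 for all genes.

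Without replicate 3 of the cocultures, 14 interferon-stimulated genes were called higher (33.3%, against 20.6% of 12267 genes tested) and 5 were called lower (against 15.4% of genes tested). The 9 genes above kept their call. Ifit1, Ifit3, Ifi44, Irgm1 and Gbp2 joined them, and Cmpk2, Samd9l, Gbp7, Dtx3l and Trim30a were called lower. The median log2 fold change was then 0.35, beside 0.030 for all genes. Without that library, the list held calls in both directions, as did all genes tested. The share of the list called lower was smaller than that of all genes. In bulk libraries, fewer cells that express a gene and less RNA of it per cell cannot be told apart.

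**Figure D1:**
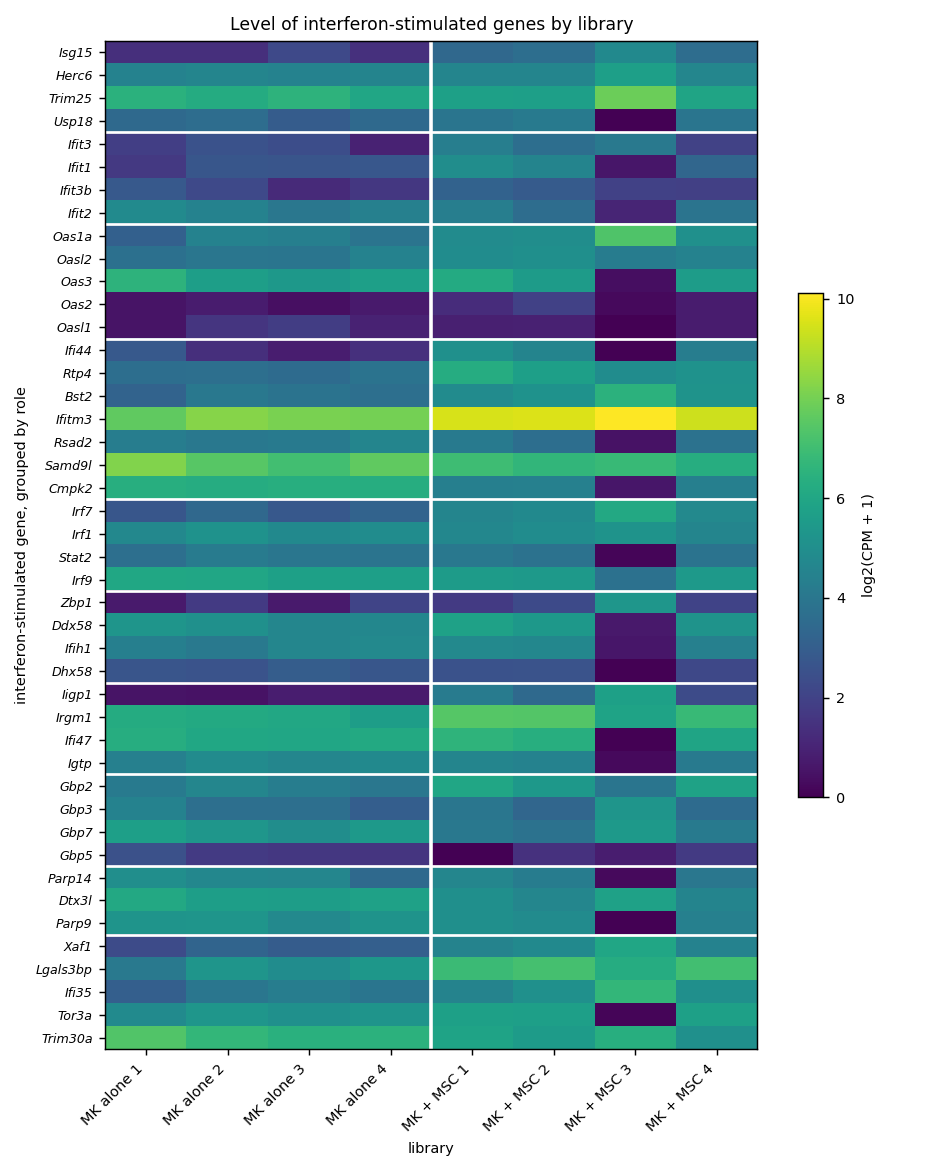
Level of the 44 interferon-stimulated genes in each of the 8 libraries, as color on the log2(CPM + 1) scale, with rows grouped by role. Ifitm3 is the brightest row in every library except replicate 1 of MKs cultured alone, where Samd9l is higher, and the column of coculture replicate 3 has 6 genes at 0 of which cocultures 1, 2 and 4 hold counts.

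**Figure D2:**
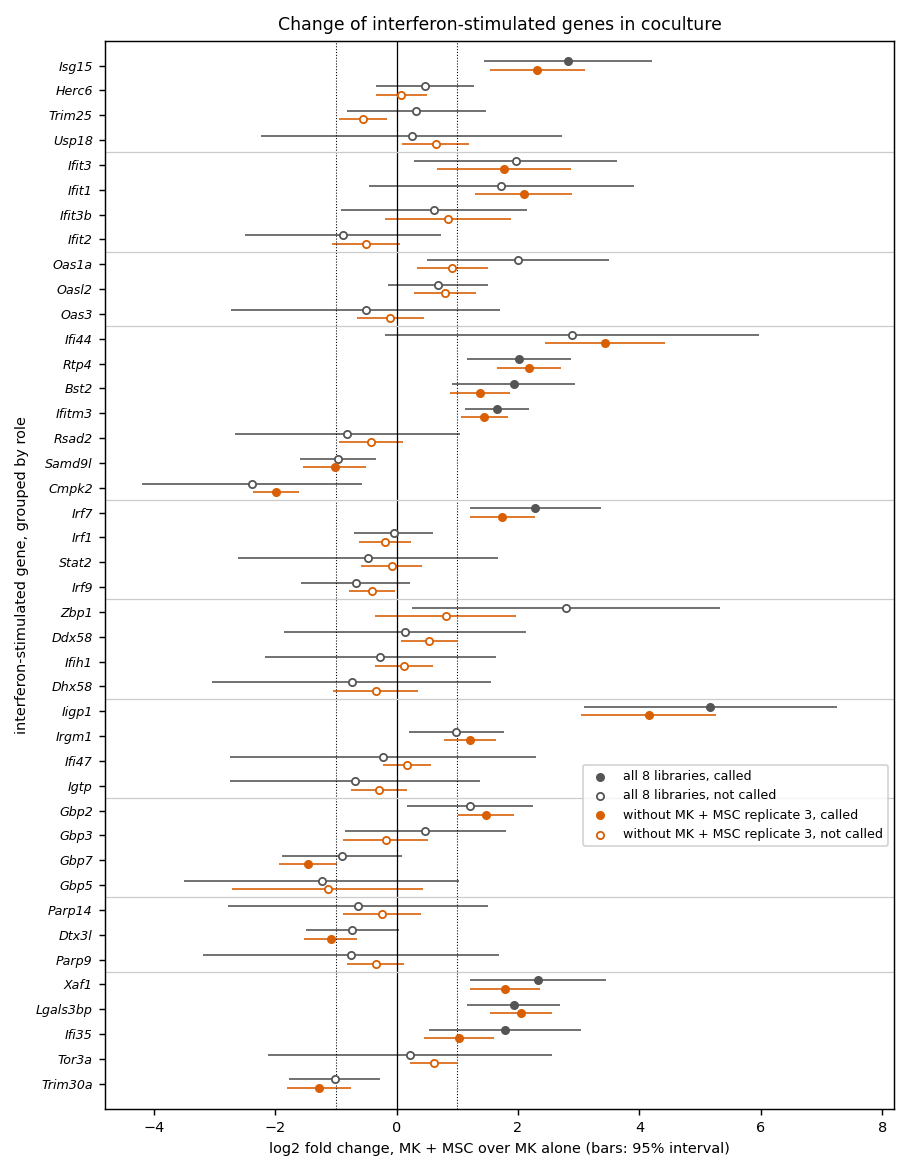
Log2 fold change of the 42 tested genes in cocultures over MKs cultured alone, with 95% intervals, for all 8 libraries (grey) and without coculture replicate 3 (orange). Filled points were called, dotted lines mark a 2-fold change, and the intervals are wider with replicate 3 for most genes. With all 8 libraries, all 9 filled points lie to the right of 0.

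Levels were also compared for overlap between the groups. All 4 cocultures lay above all 4 libraries of MKs cultured alone for 11 of the 44 genes (the 9 called genes with Herc6 and Oas1a), against 19.3% of all genes tested. They lay below for 4 genes (Cmpk2, Samd9l, Irf9 and Trim30a), against 21.1% of genes tested. With cocultures 1, 2 and 4 alone, 18 genes lay above and 7 below, against 28.1% and 26.3% of genes tested.

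ISG15 is a ubiquitin-like protein that is attached to other proteins, and Isg15 (chr4:156199424-156200818) was low in MKs cultured alone, at 1.54, 1.54, 3.65 and 1.62 CPM. In cocultures it measured 9.82, 11.6, 27.2 and 11.2 CPM, so that the groups did not overlap. The log2 fold change was 2.82 ± 0.61 (SE, n = 4 per group, edgeR adjusted p = 0.0107), a 7.08-fold difference, and 2.31 ± 0.37 without coculture replicate 3. The call was lost when replicate 4 of MKs cultured alone was left out, where the log2 fold change was 2.71. Its promoter stretch, with the 3 overlapping core matches, is printed above.

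The other genes of the ISG15 cycle were not called with either set of libraries. Trim25, a ubiquitin ligase that assists the RNA sensor RIG-I, was the highest of them. It measured 88.2, 73.8, 92.3 and 61.6 CPM in MKs cultured alone and 53.2, 51.7, 231 and 58.8 CPM in cocultures. Replicate 3 lay far above every other library, and the other 3 cocultures lay below all MKs cultured alone, so that the log2 fold change was 0.32 ± 0.51 with it and -0.55 ± 0.19 without it. Usp18, which removes ISG15 from proteins and dampens the type I receptor, measured 9.90, 11.1, 6.63 and 10.1 CPM alone and 14.2, 16.4, 0 and 14.2 CPM in cocultures. Herc6, the ligase that attaches ISG15 in mice, measured 22.1 ± 1.0 CPM (SD, n = 4) alone and 30.6 ± 13.7 CPM in cocultures.

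IFIT proteins bind viral RNA, and their 4 genes lie together on chromosome 19. None of the 4 passed the test with all libraries. Ifit1 (chr19:34640871-34650009) measured 2.20, 5.55, 5.41 and 5.67 CPM in MKs cultured alone and 30.5, 22.5, 0.521 and 9.16 CPM in cocultures. Cocultures 1, 2 and 4 lay above every library of MKs cultured alone and coculture 3 lay below them. Its log2 fold change was 1.73 ± 0.96 (edgeR adjusted p = 0.233) with all libraries and 2.09 ± 0.38 (adjusted p = 0.000185) without that coculture.

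Ifit3 (chr19:34583531-34588731) had the largest fold change of the IFIT genes with all libraries, and Ifit1 had it without coculture replicate 3. Ifit3 measured 2.64, 4.93, 4.20 and 0.973 CPM alone and 19.2, 11.7, 16.2 and 2.94 CPM in cocultures, with a log2 fold change of 1.96 ± 0.74 (adjusted p = 0.0900) and of 1.77 ± 0.52 (adjusted p = 0.00859) without coculture replicate 3. Only coculture 4 overlapped the MKs cultured alone. Its near copy Ifit3b measured 3.32 ± 2.13 CPM alone and 5.05 ± 2.63 CPM in cocultures and was not called. Reads of such copies can be divided between them by the counting, so both levels are uncertain. Ifit2, which had the highest mean CPM of the 4 in MKs cultured alone but not in cocultures, measured 27.3, 21.4, 15.0 and 20.1 CPM alone and 19.2, 11.2, 1.04 and 14 CPM in cocultures, and it was not called (-0.88 ± 0.71).

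OAS enzymes sense double-stranded RNA and make oligoadenylates that activate RNase L. None of the 3 tested genes of this family was called. Oas1a (chr5:120896256-120907521) measured 7.48, 21.3, 19.3 and 13.9 CPM in MKs cultured alone and 28.1, 30.2, 158 and 32.5 CPM in cocultures. All cocultures lay above all MKs cultured alone, and replicate 3 lay far above the other cocultures. The log2 fold change was 2.0 ± 0.66 (edgeR adjusted p = 0.0588), and without replicate 3 it was 0.92 ± 0.28 (adjusted p = 0.0103), which is under the required 2-fold change.

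Oas3 (chr5:120753098-120777661) measured 92.8, 50.5, 40.4 and 51.1 CPM in MKs cultured alone and 71.3, 45.9, 0.313 and 47.2 CPM in cocultures. Cocultures 1, 2 and 4 lay within the range of MKs cultured alone, and the log2 fold change without replicate 3 was -0.11, with a 95% interval of -0.65 to 0.44. Oasl2, which codes for an OAS-like protein with ubiquitin-like domains, measured 15.7 ± 3.87 CPM alone and 25.1 ± 6.43 CPM in cocultures. Oas2 and Oasl1 were low, with at most 2.86 and 2.54 CPM in any library.

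Among the other antiviral effectors, 3 of 7 genes were called higher with all libraries, and 4 higher and 2 lower without coculture replicate 3. IFITM3 sits in endosomal membranes and blocks the fusion of viruses. Ifitm3 (chr7:141009586-141010770) was the most abundant of the interferon-stimulated genes, at 198, 308, 271 and 254 CPM alone and 729, 768, 1107 and 641 CPM in cocultures. The groups were far apart in every library, and the log2 fold change was 1.65 ± 0.23 (adjusted p = 0.00121), a 3.15-fold difference, or 1.45 ± 0.18 without replicate 3.

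Bst2 (chr8:71534255-71537456) codes for tetherin, which holds budding viruses at the cell surface. It measured 8.36, 15.7, 13.3 and 12 CPM alone and 28.1, 34.4, 89.1 and 36.1 CPM in cocultures, with a log2 fold change of 1.92 ± 0.45 (adjusted p = 0.0155). Rtp4 (chr16:23520291-23614222) codes for a chaperone of membrane receptors that interferon induces. It measured 11.4, 11.8, 10.5 and 13.5 CPM alone and 76.4, 50.9, 28.9 and 34.4 CPM in cocultures, with a log2 fold change of 2.01 ± 0.38 (adjusted p = 0.00538). Both genes were separated between the groups in all libraries. Without coculture replicate 3, Bst2 changed by 1.37 and Rtp4 by 2.18 on the log2 scale. The call of Bst2 was lost when replicate 1, 3 or 4 of MKs cultured alone was left out, with log2 fold changes of 1.77, 1.95 and 1.90.

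Ifi44 (chr3:151730922-151749960), an interferon-induced gene whose protein is less well understood, had the largest fold change of the effectors but a wide interval. It measured 6.16, 1.54, 0.773 and 1.62 CPM alone and 32.5, 22.7, 0 and 18.7 CPM in cocultures. With all libraries the log2 fold change was 2.90 with a 95% interval of -0.19 to 5.98 (adjusted p = 0.161). Without replicate 3, which held no count of the gene, it was 3.43 with an interval of 2.44 to 4.42 (adjusted p = 1.08e-05).

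Cmpk2 and Rsad2 are neighbors on chromosome 12 and code for enzymes of antiviral nucleotide metabolism, a mitochondrial nucleotide kinase and viperin. Cmpk2 (chr12:26469204-26479837) measured 79.6, 74.8, 80.8 and 77.2 CPM in MKs cultured alone, a narrow range. In cocultures it measured 19.5, 20.4, 0.521 and 19.7 CPM, below all MKs cultured alone. On the log2 scale the difference was -2.38 ± 0.80 (adjusted p = 0.0623), which was not called, and -2.0 ± 0.18 (adjusted p = 8.94e-08) without replicate 3, which was. DESeq2 called Cmpk2 lower with all libraries. Rsad2 measured 18.7, 15.4, 16.5 and 23.3 CPM alone and 17.1, 11.6, 0.417 and 13 CPM in cocultures and was not called.

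Samd9l (chr6:3372257-3399572), a restrictor of virus growth and of cell proliferation, was the second most abundant of these genes in MKs cultured alone. It measured 296, 180, 130 and 198 CPM alone and 123, 99.2, 112 and 77.4 CPM in cocultures. Every coculture lay below every library of MKs cultured alone. The log2 fold change of -0.96 ± 0.28 (edgeR adjusted p = 0.0353) missed the required 2-fold change, and it was -1.02 ± 0.25 without replicate 3 (adjusted p = 0.00214), just past it.

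Of the 4 transcription factors, Irf7 was called higher and the others were not called. IRF7 is the factor that amplifies type I interferon production. Irf7 (chr7:141262706-141266481) measured 5.50, 9.76, 5.97 and 8.43 CPM alone and 23.4, 26.6, 68.7 and 26.3 CPM in cocultures. The groups did not overlap, and the log2 fold change was 2.29 ± 0.48 (adjusted p = 0.00908), or 1.74 ± 0.25 without replicate 3. Irf9 (chr14:55603571-55610030), the DNA-binding partner of STAT2, measured 64.4, 62.2, 52.2 and 51.9 CPM alone and 45.9, 42.7, 12.5 and 43.6 CPM in cocultures. All cocultures lay below all MKs cultured alone, and the log2 fold change was -0.67 ± 0.40 (adjusted p = 0.258), or -0.41 without replicate 3. Stat2 measured 14.6 ± 2.23 CPM alone and 10.5 ± 7.05 CPM in cocultures, where replicate 3 was at 0.104 CPM. Irf1, which interferon gamma induces early, measured 29.0 ± 3.78 CPM alone and 28.1 ± 5.50 CPM in cocultures, a log2 difference of -0.045 with an interval of -0.70 to 0.61.

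No sensor of nucleic acids was called, with or without coculture replicate 3. Ddx58, which codes for RIG-I, was the most abundant, at 37.4, 32.9, 24 and 24.6 CPM alone and 53.6, 40.8, 0.626 and 35.6 CPM in cocultures. Its log2 fold change was 0.14 ± 0.88, and 0.53 ± 0.22 without replicate 3. Ifih1, which codes for MDA5, measured 21.6 ± 4.64 CPM alone and 23.8 ± 3.30 CPM (SD, n = 3) in cocultures 1, 2 and 4, and 0.521 CPM in coculture 3. Dhx58, which codes for the regulator LGP2, measured 5.28, 5.03, 6.96 and 5.51 CPM alone and 4.91, 5.06, 0 and 3.63 CPM in cocultures.

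Zbp1 (chr2:173206612-173218923), a sensor of Z-form nucleic acid, had the opposite pattern to the RNA sensors in replicate 3. It measured 0.660, 2.26, 0.663 and 3.24 CPM alone and 2.27, 3.89, 38.6 and 3.11 CPM in cocultures. The log2 fold change of 2.80 ± 1.12 (adjusted p = 0.106) rested on that library, since it was 0.81 ± 0.55 (adjusted p = 0.224) without it.

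IRG proteins are GTPases that act on the vacuoles of intracellular pathogens. Iigp1, on chromosome 18, had the largest fold change of all interferon-stimulated genes. It was at or near the floor in MKs cultured alone, at 0.440, 0.411, 0.773 and 0.648 CPM (2, 4, 7 and 4 counts), and at 17.6, 9.86, 52.9 and 3.98 CPM in cocultures. The lowest coculture was above the highest library of MKs cultured alone. On the log2 scale Iigp1 changed by 5.17 ± 0.92 (adjusted p = 0.00426) with all libraries and 4.15 ± 0.52 (adjusted p = 4.52e-06) without replicate 3.

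Irgm1 (chr11:48861968-48871683), a regulator of the other IRG proteins, measured 73.9, 69.3, 66.7 and 48.8 CPM alone and 175, 168, 57.9 and 110 CPM in cocultures. Cocultures 1, 2 and 4 lay above all MKs cultured alone, and the log2 fold change was 0.98 ± 0.35 (adjusted p = 0.0734) with all libraries and 1.21 ± 0.20 (adjusted p = 8.09e-05) without replicate 3. Igtp and Ifi47 code for further IRG proteins and were not called. Igtp, which had the largest negative fold change of the IRG genes, measured 20.5, 28.7, 23.6 and 27.2 CPM alone and 23.6, 21.2, 0.209 and 17.1 CPM in cocultures (-0.69 ± 0.91, and -0.30 ± 0.22 without replicate 3). Ifi47 measured 68.5 ± 6.85 CPM alone and 78.0 ± 17.5 CPM in cocultures 1, 2 and 4, and neither reached 1 CPM in coculture 3.

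GBP proteins are larger GTPases that coat pathogens and their vacuoles, and their 4 genes lie together on chromosome 3. None was called with all libraries, and without coculture replicate 3 Gbp2 was called higher and Gbp7 lower. Gbp2 (chr3:142620602-142638008) measured 17.2, 24.2, 18.6 and 14.9 CPM alone and 62.1, 40.9, 14.3 and 56.2 CPM in cocultures, with log2 fold changes of 1.21 ± 0.46 (adjusted p = 0.0898) and, without replicate 3, 1.47 ± 0.22 (adjusted p = 2.82e-05). Gbp7 (chr3:142530342-142550149) measured 51.7, 39.1, 30.5 and 42.5 CPM alone and 15.5, 13.1, 42.7 and 16.6 CPM in cocultures, with log2 fold changes of -0.89 ± 0.44 (adjusted p = 0.176) and, without replicate 3, -1.46 ± 0.23 (adjusted p = 4.32e-05).

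For both genes, replicate 3 lay near MKs cultured alone and the other cocultures did not overlap them. Gbp5, which takes part in inflammasome activation, was low in all libraries, at 4.62, 2.26, 2.10 and 1.95 CPM alone and 0, 1.69, 0.730 and 2.25 CPM in cocultures. Gbp3 measured 13.1 ± 5.94 CPM alone and 11.5 ± 2.96 CPM in cocultures 1, 2 and 4, and 38.2 CPM in coculture 3.

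PARP9 and DTX3L form a complex that modifies histones and viral proteins, and PARP14 is a related ADP-ribosyltransferase. Dtx3l (chr16:35926511-35939151) measured 67.7, 49.8, 48.2 and 54.0 CPM alone and 31.5, 23.9, 54.3 and 22.6 CPM in cocultures. Its log2 fold change was -0.73 ± 0.34 (adjusted p = 0.156), and -1.09 ± 0.21 (adjusted p = 0.000275) without replicate 3. Parp9 (chr16:35938470-35972605) measured 36.5, 37.2, 26.1 and 35.7 CPM alone and 31.8, 28.3, 0 and 20.2 CPM in cocultures and was not called. The ends of Parp9 and Dtx3l overlap on opposite strands, and whether the counting used strand is not given, so reads in the overlap cannot be assigned. Parp14 measured 22.4 ± 8.74 CPM alone and 19.1 ± 4.47 CPM in cocultures 1, 2 and 4.

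Among the remaining genes, 3 of 5 were called higher. Xaf1 (chr11:72301629-72313733) codes for a protein that promotes apoptosis. It measured 3.96, 8.52, 6.63 and 7.46 CPM alone and 22.2, 27.1, 63.0 and 21.6 CPM in cocultures, and the log2 fold change was 2.33 ± 0.49 (adjusted p = 0.00990), or 1.79 without replicate 3. Lgals3bp, a secreted glycoprotein, measured 16.1, 38.1, 28.9 and 39.4 CPM alone and 117, 140, 76.2 and 133 CPM in cocultures, with a log2 fold change of 1.93 ± 0.34 (adjusted p = 0.00404), or 2.05 without replicate 3. Both genes were separated between the groups in every library.

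Ifi35, which codes for a partner of the protein NMI, measured 7.26, 14.9, 18.3 and 14.4 CPM alone and 22.3, 32.7, 104 and 31.6 CPM in cocultures. Its log2 fold change was 1.79 ± 0.55 (adjusted p = 0.0468), a 3.45-fold difference, and without replicate 3 it was 1.03 ± 0.27 (adjusted p = 0.00440), a 2.04-fold difference that was also called. With all libraries this was the call nearest to the threshold. It was lost when any replicate of MKs cultured alone, or coculture 2 or 4, was left out, with log2 fold changes of 1.57 to 1.99, so that 2 of the 5 remaining genes were then called. The count of this group was also 2 with RLE scaling in edgeR and with glmTreat, a test against a minimum change.

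Trim30a (chr7:104409025-104465193), a restrainer of Toll-like receptor signalling, had the highest mean CPM of this group in MKs cultured alone and lay lower in cocultures. It measured 163, 103, 85.1 and 88.7 CPM alone and 58.0, 45.4, 79.6 and 33.2 CPM in cocultures. All cocultures lay below all MKs cultured alone, and the log2 fold change was -1.02 ± 0.33 (adjusted p = 0.0553), or -1.28 ± 0.25 (adjusted p = 0.000365) without replicate 3. DESeq2 called it lower with all libraries. Tor3a, which codes for a torsin ATPase, measured 33.8 ± 4.98 CPM alone and 52.5 ± 1.07 CPM in cocultures 1, 2 and 4, and 0.104 CPM in coculture 3.

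Coculture replicate 3 departed from the other cocultures in both directions. It was the highest coculture for 16 of the 44 genes (36.4%, against 38.9% of all genes tested), the lowest for 24 (54.5%, against 52.3%) and in between for Gbp5, Ifit3, Ifit3b and Samd9l. Oas1a, Trim25 and Zbp1 were among those far above. In this library 6 genes had no count (Usp18, Oasl1, Ifi44, Dhx58, Ifi47 and Parp9), and 19 had at most 10 counts, against 1 to 6 in the other libraries.

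Of the 42 tested genes, 14 (33.3%) had at most 10 counts in coculture replicate 3 and over 10 in every other library. They were Cmpk2, Ddx58, Dhx58, Ifi47, Ifih1, Ifit2, Igtp, Oas3, Parp14, Parp9, Rsad2, Stat2, Tor3a and Usp18. The same held for 21.5% of all genes tested. The mean log2(CPM + 1) over the 44 genes was 4.03 to 4.20 in MKs cultured alone, and 4.70, 4.60, 3.37 and 4.36 in cocultures 1 to 4. The summed level, in which the abundant Ifitm3 weighs most, was 1393 to 1681 CPM alone and 2294, 2172, 2585 and 1856 CPM in cocultures. Replicate 3 was thus the lowest library by the mean of logs and the highest by the sum.

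**Figure D3:**
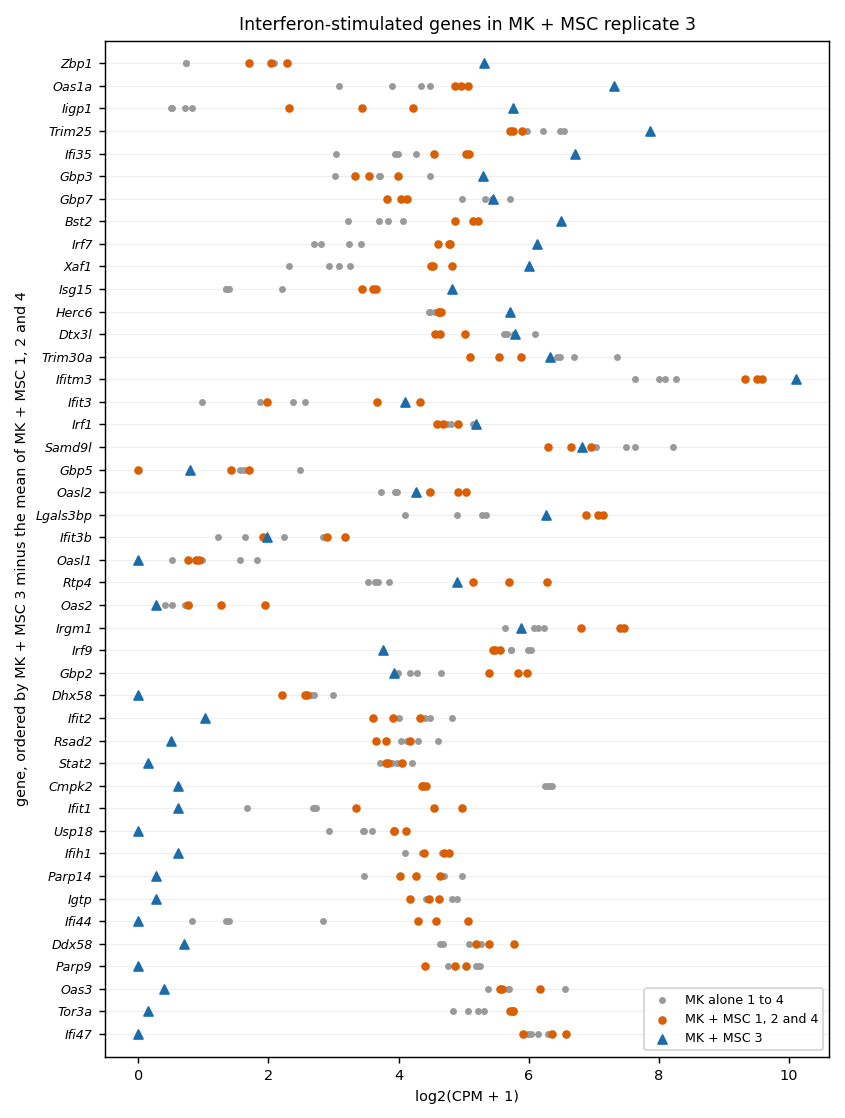
Level of the 44 interferon-stimulated genes on the log2(CPM + 1) scale in MKs cultured alone (grey), cocultures 1, 2 and 4 (orange) and coculture 3 (blue triangles), ordered by the distance of coculture 3 from the mean of the other cocultures. The lower rows show the genes from Ifi47 to Ifit2 at or near 0 in coculture 3, and the upper rows show Zbp1, Oas1a, Iigp1 and Trim25 above the other cocultures.

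Levels were compared between genes as CPM per kb, dividing by the length of the merged exons of GENCODE vM21. Ifitm3 was the highest gene in both groups, at 380 CPM per kb in MKs cultured alone and 1197 in cocultures (1051 without replicate 3). In MKs cultured alone it was followed by Samd9l at 37.0, Ifi47 at 27.7, Trim30a at 26.7 and Cmpk2 at 18.8 CPM per kb. In cocultures it was followed by Bst2 at 52.0, Lgals3bp at 41.0, Oas1a at 33.0 and Ifi35 at 27.5 CPM per kb. Without replicate 3 the order in cocultures was Lgals3bp at 45.7, Bst2 at 36.4, Ifi47 at 31.5 and Irgm1 at 26.0 CPM per kb. Iigp1 was the lowest gene in MKs cultured alone, at 0.0976 CPM per kb. These levels are group means, and their order is a description with no test.

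Genes of interferon signalling from ligand to STAT were listed separately. Their calls stand beside 13.2% of all genes tested called higher and 7.31% called lower, or 20.6% and 15.4% without coculture replicate 3. Of 21 interferon genes listed, Ifng was the only one measured, and the other 20 were not analysed here. Ifng, the gene of interferon gamma, had 15, 7, 5 and 5 counts in MKs cultured alone (3.30, 0.719, 0.552 and 0.811 CPM). It had 0 counts in all 4 cocultures, which allows up to 0.283, 0.389, 0.313 and 0.519 CPM, and it did not pass the filter for testing.

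Of 6 receptor genes, 1 was called higher and 1 lower. Ifngr2, a subunit of the interferon gamma receptor, measured 75.7, 85.0, 89.5 and 84.5 CPM alone and 139, 145, 477 and 131 CPM in cocultures, with a log2 fold change of 1.41 ± 0.43 (adjusted p = 0.0453). Without replicate 3 the log2 fold change of Ifngr2 was 0.71, under the required 2-fold change, and the call was also lost when any 1 library of MKs cultured alone was left out (1.36 to 1.46). Ifnlr1, the receptor subunit for type III interferons, measured 12.8, 15.4, 17 and 20.8 CPM alone and 2.55, 1.30, 0.313 and 4.15 CPM in cocultures. It fell by 2.99 on the log2 scale (adjusted p = 0.0208), and by 2.68 without replicate 3. This call was lost when replicate 2, 3 or 4 of MKs cultured alone or coculture 2 was left out, with log2 fold changes of -3.02, -3.0, -2.88 and -2.80. Ifngr1, the ligand-binding subunit for interferon gamma, measured 619, 480, 415 and 469 CPM alone and 179, 153, 2.92 and 152 CPM in cocultures. It was not called with all libraries (adjusted p = 0.124) and was lower without replicate 3, with a log2 fold change of -1.64. The type I receptor genes Ifnar1 and Ifnar2 and the shared subunit Il10rb were not called.

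Among the Janus kinase and STAT genes, Jak1, Jak2, Tyk2 and Stat3 were not called with all libraries, and Jak2 was called lower without replicate 3. Jak1, a kinase shared by the type I and type II receptors, measured 558, 463, 459 and 496 CPM alone and 332, 300, 130 and 246 CPM in cocultures. All cocultures lay below all MKs cultured alone, and the log2 fold change of -0.97 ± 0.28 (adjusted p = 0.0367) missed the required 2-fold change, as did that of -0.78 without replicate 3. Of 5 inhibitors, Ptpn6, a phosphatase that restrains JAK signalling, was lower, at 194, 332, 290 and 304 CPM alone and 69.4, 91.6, 166 and 110 CPM in cocultures (log2 fold change -1.36 ± 0.30, adjusted p = 0.0118, and -1.66 without replicate 3). The call of Ptpn6 was lost without replicate 2 of MKs cultured alone (-1.24). Socs1, Socs3, Ptpn2 and Pias1 were not called with all libraries, and without replicate 3 Socs3 was called higher and Socs1 lower.

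Among 12 tested genes of interferon induction, 1 was called lower and 0 higher. Irf8, a factor of myeloid and dendritic cells that also takes part in interferon induction, measured 97.4, 117, 109 and 126 CPM alone and 30.0, 39.3, 50 and 48.9 CPM in cocultures. Its log2 fold change was -1.42 ± 0.23 (adjusted p = 0.00271), or -1.54 without replicate 3. The other 11 tested genes were Tlr3, Tlr7, Myd88, Ticam1, Mavs, Tmem173, Tbk1, Ikbke, Irf3, Irf5 and Traf3, and without replicate 3 Tlr3 was called higher.

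**Figure D4:**
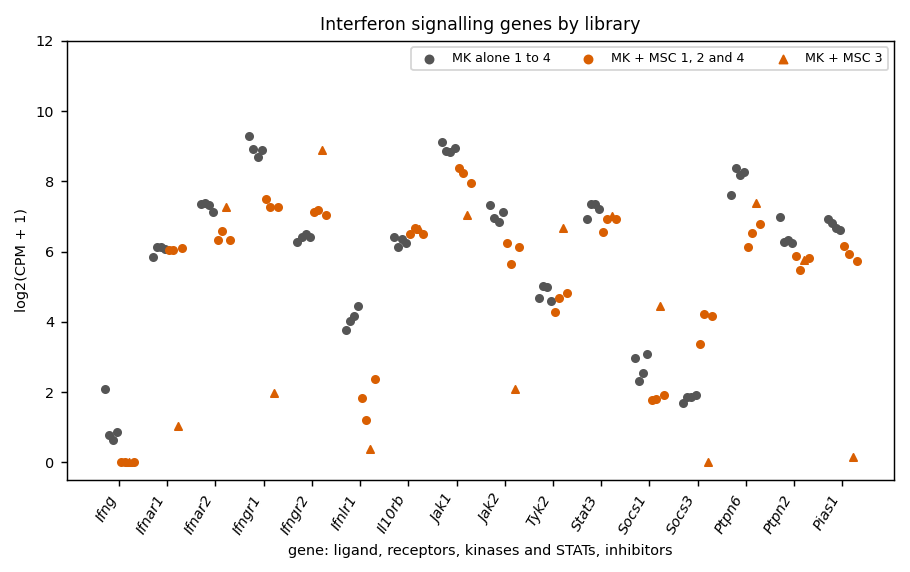
Level of interferon signalling genes in each library on the log2(CPM + 1) scale, for MKs cultured alone (grey), cocultures 1, 2 and 4 (orange circles) and coculture 3 (orange triangles). Ifng lies at 0 in all cocultures, Ifnlr1 and Ifngr1 lie lower in cocultures, and coculture 3 lies above all other libraries for Ifngr2 and far below them for Ifngr1, Jak2 and Pias1.

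Markers of other cells differed between the same groups as the interferon-stimulated genes. MSC markers summed to 14.6 to 22.7 CPM in MKs cultured alone and to 1151 to 3827 CPM in cocultures, with 6 of 8 tested markers higher (by mean CPM, Sparc, Col1a2 and Col1a1 led). In MKs cultured alone, Pdgfra had no count in 2 of 4 libraries and Col3a1 had none in 3 of 4. Macrophage markers summed to 152 to 228 CPM alone and 920 to 1389 CPM in cocultures, with 8 of 9 tested markers higher (by mean CPM, Cd68, Csf1r and Adgre1 led). C1qa, a listed macrophage marker, was at 0 in replicate 1 of MKs cultured alone and at most 0.411 CPM in the other 3. All cocultures lay above all MKs cultured alone for 8 of the 11 macrophage markers and below them for 1, against 19.3% and 21.1% of all genes tested.

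Several leukocyte lists went the other way. Neutrophil markers fell to 4518 to 10267 CPM in cocultures, with 11 of 11 lower (by mean CPM, S100a8, S100a9 and Ngp led). Monocyte markers summed to 1264 to 1600 CPM alone and 153 to 279 CPM in cocultures, with 3 of 5 lower (Ly6c2, F13a1 and Ccr2). For B cells the sums were 879 to 939 and 90.8 to 232 CPM, with 4 of 8 lower (Ms4a1, Cd79a and Cd79b led). For T and NK cells they were 122 to 211 and 1.04 to 26.7 CPM, with 3 of 4 lower (Nkg7, Klrb1c and Cd3d). Plasmacytoid dendritic cells, which are known for making type I interferon, had sums of 52.8 to 80.5 CPM alone and 16.4 to 37.8 CPM in cocultures, and 1 of their 3 tested markers, Siglech, was lower. Conventional dendritic cell markers summed to 55.0 to 64.1 and 3.96 to 9.34 CPM, with 2 of 4 lower (Flt3 and Cd209a). Eosinophil markers summed to 871 to 1615 and 13.2 to 61.0 CPM, with 4 of 5 lower (Prg2, Epx and Prg3 led). Not every tested marker of these lists fell. With all libraries the log2 fold change was above 0 for 2 monocyte, 2 conventional dendritic cell, 1 plasmacytoid dendritic cell and 1 eosinophil marker.

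Of 15 MK and platelet markers, 1 was lower (Nfe2) and 0 were higher. Nfe2 lost its call when replicate 2, 3 or 4 of MKs cultured alone or coculture 2 was left out, and 3 markers were lower without coculture 3 and 2 with DESeq2. Of the erythroid markers, Hbb-bt the highest by mean CPM, 0 of 3 were called, and of the endothelial markers 1 of 2, Tek, was lower.

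Several of these marker counts moved with single libraries. Without coculture 3, 9 MSC markers, 10 macrophage markers and 1 monocyte marker were higher. In that fit 6 B cell, 5 T and NK cell, 2 plasmacytoid dendritic cell, 2 erythroid and 2 endothelial markers were lower. With DESeq2 on all libraries, 1 monocyte marker was also higher. Without any 1 library of MKs cultured alone, or without coculture 4, 1 T and NK cell marker was lower. The count of monocyte markers called lower was 2 when any library other than coculture 3 was left out, and that of plasmacytoid dendritic cells was 0. The B cell count was 2 without replicate 1 of MKs cultured alone or coculture 2, and the endothelial count was 0 without any 1 library of MKs cultured alone.

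The interferon-stimulated genes that were called higher and the summed MSC and macrophage markers were all higher in cocultures. Among cocultures, replicate 3 had the lowest MSC sum (1151 CPM) and the highest macrophage sum (1389 CPM). Isg15, Bst2, Ifitm3, Irf7, Iigp1, Xaf1 and Ifi35 were highest in that coculture, and Rtp4 and Lgals3bp were lowest. In cocultures 1, 2 and 4, Cmpk2, Samd9l, Gbp7, Dtx3l and Trim30a were lower, as were the summed neutrophil, monocyte and lymphocyte markers. In coculture 3 those of neutrophils, monocytes and B cells had their lowest sums, of 4518, 153 and 90.8 CPM. Of the 5 genes, Cmpk2 (0.521 CPM), Samd9l (112 CPM) and Trim30a (79.6 CPM) lay below all MKs cultured alone there. Gbp7 (42.7 CPM) and Dtx3l (54.3 CPM) lay within the range of MKs cultured alone. The part of these cells in either change was not tested.

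**Figure D5:**
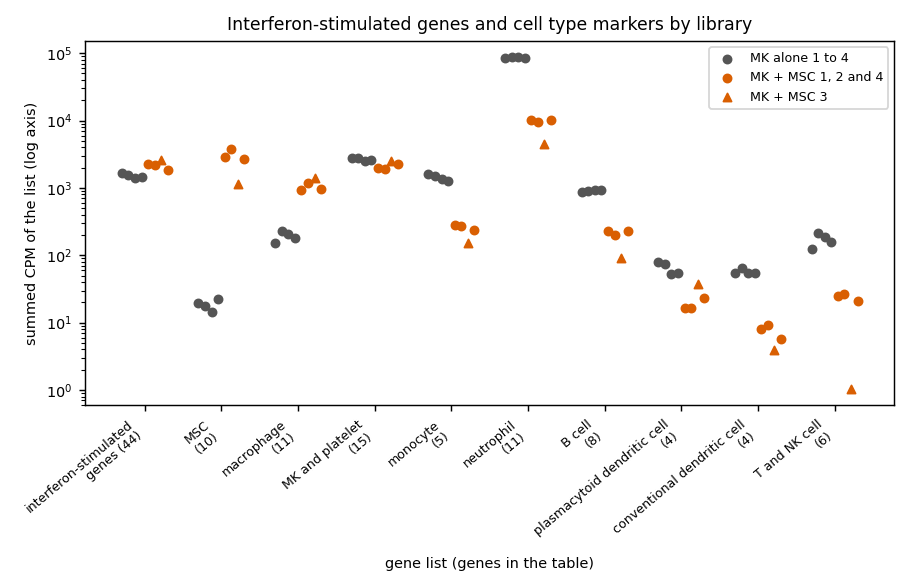
Summed CPM, on a log axis, of the 44 interferon-stimulated genes and of 9 lists of cell type markers in each library, for MKs cultured alone (grey), cocultures 1, 2 and 4 (orange circles) and coculture 3 (orange triangles). The sums of the interferon-stimulated genes lie between 1393 and 2585 CPM, while the MSC and macrophage lists are higher and the neutrophil, monocyte and lymphocyte lists lower in all cocultures.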

How the data were processed

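RNA-Seq counts were taken from 4 libraries of MKs cultured alone and 4 of MK and MSC cocultures. The authors prepared SMART-Seq HT libraries, filtered reads with fastp, quantified them with kallisto on mm10 and compared groups with DESeq2 (versions not given in the sources used here), and deposited raw whole-number counts per gene without normalization. How counts were summed over transcripts, and whether strand was used, is not given in the sources used here. The batch in the authors' design is not named.

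Groups and replicate numbers came from the labels. The test was the robust quasi-likelihood F test of edgeR 4.0.16 (R 4.3.3) after TMM scaling and filterByExpr, with all 8 libraries and no covariate, and p-values were adjusted over all genes tested. SE is the log2 fold change divided by the square root of F. Cutoffs for calls were those of the paper, applied to CPM instead of TPM, where CPM is the count divided by the TMM-scaled library size. The edgeR test was checked on simulated counts with known fold changes. Alternatives were DESeq2 1.42.0, other scalings and filters, glmTreat with a 1.5-fold threshold, the replicate number as a block and each library left out in turn. Gene positions and exon lengths came from GENCODE vM21 (GRCm38, the build of mm10), and promoters from RefSeq on GRCm38.p6. Reads carry no molecular identifiers.

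The 45 genes, the signalling lists and the marker lists were chosen with earlier results of these data known. All 45 genes are named, with values per library for the most abundant gene and the largest positive and negative fold change of each role group. Of the other lists, up to 3 called genes were named by mean CPM. Values per library for other genes, and Pdgfra, Col3a1, C1qa, Ifngr1 and other uncalled genes of the lists, were chosen after their values were seen. The result of 1 signalling gene is not reported here.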

Additional observations from a re-analysis of the deposited data

Results flagged for a closer look

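Single libraries that stood far from the other 3 of their group were looked for in each interferon-stimulated gene and in the summary measures with Dixon's test on log2(CPM + 1). Of 90 groups of 4 libraries examined, 25 had such a library, where chance gives about 5% (4.5 groups), and 21 of the 25 were coculture replicate 3. This library lay below the other cocultures for Usp18 (0), Oas3 (0.39), Rsad2 (0.50), Cmpk2 (0.61), Ifi44 (0), Irf9 (3.76), Stat2 (0.14), Ifih1 (0.61), Ddx58 (0.70), Dhx58 (0), Ifi47 (0), Igtp (0.27), Parp9 (0), Parp14 (0.27) and Tor3a (0.14). It lay above them for Isg15 (4.82), Herc6 (5.71), Trim25 (7.86), Oas1a (7.32), Irf7 (6.12) and Zbp1 (5.31). In MKs cultured alone, replicate 3 was far above for Isg15 (2.22) and far below for Parp9 (4.76), and replicate 1 was far below for Ifit1 (1.68) and far above for Gbp5 (2.49).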

How the results depend on the processing

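The count of interferon-stimulated genes called higher was 9 as reported (beside 13.2% of all genes). It stayed between 8 and 13 under all alternatives that kept every library (9.35% to 19.97% of all genes). The count of 13 came with scaling to the MK and platelet markers, where the share of all genes was also the highest of these. With each library left out in turn, the count ran from 6 (8.6% of all genes) to 14 (20.6%). The count called lower was 0 as reported (beside 7.31% of all genes), 2 with DESeq2 (10.7%), 2 with upper quartile scaling (7.52%) and 1 with library size only (6.45%). With at least 10 counts in every library, which kept 22 of these genes, it was 3 (10.8%). With DESeq2 and the replicate block it was 2 (11.9%), and with each library left out it was 0 to 5 (4.42% to 15.4%). Scaling to the MK and platelet markers gave 2341 genes higher and 505 lower of all genes tested, and put the middle log2 fold change at 0.38 over all genes and at 0.62 over the interferon-stimulated genes. DESeq2 with the replicate block gave 1392 genes lower. With each library left out, 1071 to 2530 genes were higher and 539 to 1890 lower. The median of the interferon-stimulated genes was then 0.21 to 0.35.

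Libraries with the same replicate number had deviations from their group means that correlated at 0.301, 0.016, 0.118 and 0.016 across genes. Replicates 1 and 3 of MKs cultured alone matched the coculture of their own number best, and replicates 2 and 4 matched coculture 3 best. As the matches went both ways, the numbers were not taken to pair the samples, and the block is given as an alternative. With the replicate number as a block, 9 interferon-stimulated genes were higher and 0 lower, beside 9.35% and 4.89% of all genes. Their median was -0.034 (-0.054 with DESeq2), beside a median of -0.14 for all genes (-0.17 with DESeq2). Ifngr2, Ifnlr1, Nfe2, Tek and the T and NK cell markers were not called with the block. Neither were the markers Siglech, F13a1, Ms4a1, Cd79b and Mrc1. Jak1 was called lower with the block (log2 fold change -1.05, edgeR adjusted p = 0.0479). DESeq2 with the block called 2 of the Janus kinase and STAT genes lower. The sign turned with the block for Usp18 (-0.43), Trim25 (-0.012), Ddx58 (-0.45) and Tor3a (-0.35), and with marker scaling for Irf1 (0.30), Ifih1 (0.11) and Ifi47 (0.14). With each library left out it turned at least once for Trim25 (-0.55 to 0.59), Irf1 (-0.20 to 0.081), Ifih1 (-0.51 to 0.12), Ddx58 (-0.21 to 0.53), Ifi47 (-0.55 to 0.17) and Gbp3 (-0.18 to 0.80). None of these genes was called under those settings. Over the alternatives of single genes, 458 values kept direction and side of the threshold, 21 gained a call, 10 lost a call and 15 turned sign, and the cause was not tested. Genes under about 3 counts per library could not be followed at this depth.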
